A study of Homo sapiens with 3 samples.

Results

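Head-to-head bidirectional coding promoters are stretches of DNA from which 2 neighbouring protein-coding genes are transcribed outward, on opposite strands. Their occupancy by CHD8 and TRRAP was examined in human neural stem cells. The cells were made from the H9 line of human embryonic stem cells. A pair was counted if the start of the minus-strand gene lay 0 to 1000 bp to the left of the start of the plus-strand gene, with starts taken from the canonical transcripts of GENCODE release 44 on GRCh38. On chromosomes 1 to 22 and X this gave 984 pairs, which hold 1895 of 19970 coding genes (9.49%). They lie in 912 separate loci, because 72 genes belong to more than 1 pair and 77 pairs hold a readthrough gene. The median distance between the starts was 233.5 bp (quartiles 122 and 401.75 bp, range 11 to 1000 bp), and 624 pairs were at most 300 bp apart.

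All libraries came from wild-type cells in 1 culture condition. Chromatin was fixed with 2 mM disuccinimidyl glutarate and 1% formaldehyde and sheared by 14 sonication cycles, and antibodies to CHD8 (1 library) and to TRRAP (1 library) were used for the precipitation. There is therefore no replicate error. A library of control IgG is not analysed here. The deposited lists hold 23393 CHD8 peaks and 14735 TRRAP peaks. The read totals are not given in the sources used here. No p-value was computed: shares carry Wilson 95% intervals and differences carry Newcombe 95% intervals, which cover counting error over promoters only. Neighbouring pairs share sequence and are not independent.

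CHD8 is a chromatin remodeler that uses ATP to move nucleosomes, and TRRAP is the large scaffold subunit that brings histone acetyltransferase complexes to transcription factors such as MYC and E2F. Head-to-head pairs usually lie in a CpG island with a shared region free of nucleosomes, and many hold genes needed in every cell, among them genes for DNA repair, mitochondria and histones. The study's title names CHD8 and TRRAP as an axis at MYC and E2F target genes. The comparison below asks how often, how strongly and where both proteins sit at these shared promoters, beside 16847 single coding promoters that have no other coding start within 2000 bp.

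The sequence between the starts is shown for 9 pairs that illustrate the classes of occupancy described below. Only intervals that overlap no annotated exon are shown, 5′ to 3′ on the plus strand of GRCh38 and without the start bases themselves. Capitals mark exact consensus words on either strand: CCGGAAG for ETS factors, CCAAT for NFY, CACGTG for the E-box bound by MYC and MAX, GGGGCGGGG for SP factors, TGACGTCA for the cAMP response element (CRE), TATAAA for the TATA box, and TTTGGCGC or TTTCGCGC for E2F. SARS2/MRPS12 came from the panel of pairs named below, and the others were chosen after their values were seen. The first 3 carried both proteins, the next 4 CHD8 alone and the last 2 neither. The CHD8 summit of HNRNPDL/ENOPH1 lay −1338 bp from the start of HNRNPDL (negative: away from ENOPH1). It is thus outside the printed interval and beyond the 500 bp extension of the scored window, which only another part of the peak reached.
COX15/CUTC (chr10:99732128-99732233): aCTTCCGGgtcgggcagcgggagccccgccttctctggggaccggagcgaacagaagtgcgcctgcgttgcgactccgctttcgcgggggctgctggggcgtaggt
DDX51/NOC4L (chr12:132144320-132144456): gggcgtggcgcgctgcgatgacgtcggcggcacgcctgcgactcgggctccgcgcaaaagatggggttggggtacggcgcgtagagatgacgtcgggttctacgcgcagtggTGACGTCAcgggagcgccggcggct
HNRNPDL/ENOPH1 (chr4:82430463-82430589): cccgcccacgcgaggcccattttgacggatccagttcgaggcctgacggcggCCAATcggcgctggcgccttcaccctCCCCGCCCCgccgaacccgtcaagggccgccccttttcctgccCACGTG
SARS2/MRPS12 (chr19:38930764-38930943): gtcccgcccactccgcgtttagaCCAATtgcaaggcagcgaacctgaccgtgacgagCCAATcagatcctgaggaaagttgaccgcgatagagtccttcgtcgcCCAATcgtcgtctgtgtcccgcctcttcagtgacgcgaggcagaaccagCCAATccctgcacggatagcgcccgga
ADAT2/PEX3 (chr6:143450696-143450804): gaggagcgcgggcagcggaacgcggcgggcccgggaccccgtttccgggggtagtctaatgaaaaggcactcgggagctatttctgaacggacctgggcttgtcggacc
METTL6/EAF1 (chr3:15427545-15427597): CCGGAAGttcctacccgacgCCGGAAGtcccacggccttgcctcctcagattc
H2BC12/H2AC12 (chr6:27146856-27147105): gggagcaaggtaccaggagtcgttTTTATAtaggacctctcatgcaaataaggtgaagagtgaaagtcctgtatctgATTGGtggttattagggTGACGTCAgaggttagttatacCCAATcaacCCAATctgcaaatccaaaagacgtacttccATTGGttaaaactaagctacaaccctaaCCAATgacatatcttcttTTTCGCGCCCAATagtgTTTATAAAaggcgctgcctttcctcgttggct
H2AC1/H2BC1 (chr6:25726563-25726776): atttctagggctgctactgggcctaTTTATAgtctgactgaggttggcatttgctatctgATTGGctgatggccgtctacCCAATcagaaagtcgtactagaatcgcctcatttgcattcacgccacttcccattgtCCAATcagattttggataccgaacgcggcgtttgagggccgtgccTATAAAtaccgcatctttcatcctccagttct
DUOX2/DUOXA2 (chr15:45114173-45114325): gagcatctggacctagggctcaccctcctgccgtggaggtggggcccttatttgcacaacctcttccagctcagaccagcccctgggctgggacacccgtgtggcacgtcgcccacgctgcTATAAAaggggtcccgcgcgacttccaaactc

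Nearly every head-to-head pair carried a CHD8 peak. A peak counted if it overlapped, by at least 1 bp, the interval between the starts extended by 500 bp on each side. By this measure 928 of 984 pairs had CHD8 (94.3%, 95% interval 92.7 to 95.6), where 55.3% of all coding starts and 49.9% of single promoters had a CHD8 peak within 500 bp. TRRAP was present at 590 pairs (60.0%, 56.9 to 63.0), where it was present at 33.6% of all coding starts and 30.5% of single promoters. Both proteins were present at 588 pairs (59.8%, 56.7 to 62.8), against 32.6% of all coding starts and 29.5% of single promoters. CHD8 without TRRAP was found at 340 pairs (34.6%, 31.6 to 37.6) and neither protein at 54 (5.49%, 4.23 to 7.09).

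TRRAP without CHD8 was found at only 2 pairs. CNGA1/NIPAL1 (chromosome 4, starts at 48016681 and 48016772), which holds a subunit of a cyclic nucleotide-gated channel, had a TRRAP peak of 125 bp with a fold of 7.21. The pair of EOLA1 with an unnamed coding gene (ENSG00000241489, chromosome X, starts at 149540926 and 149541012) had a TRRAP peak of 237 bp with a fold of 11.0. The fold is the authors' ratio of signal to background at a peak, and it is compared here only within a list.

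**Figure D1:**
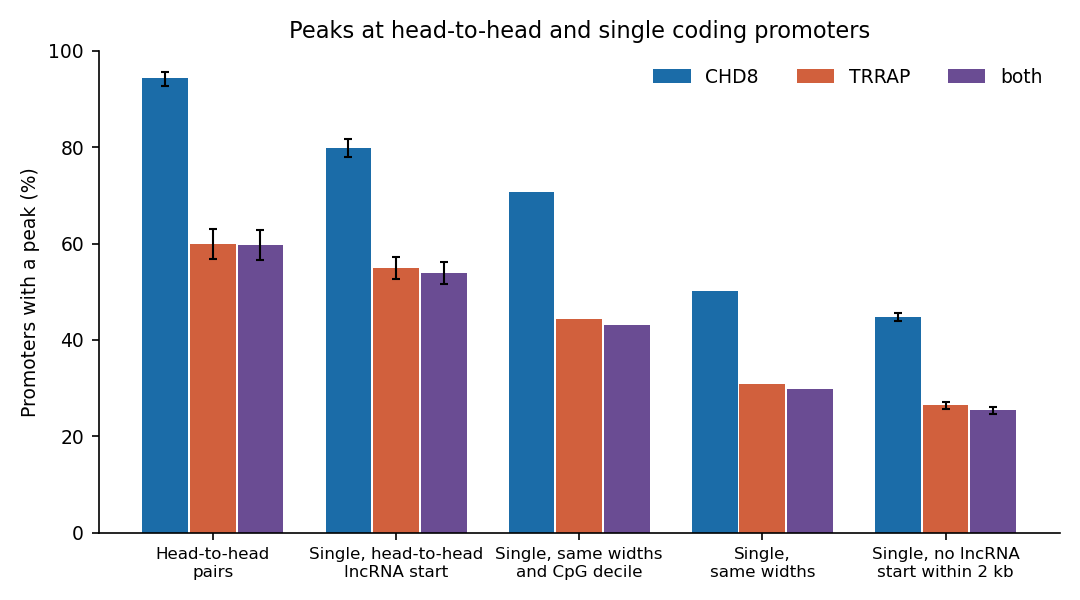
Percent of promoters with a peak of CHD8, of TRRAP or of both (y axis) at head-to-head pairs and at 4 references made of single coding promoters (x axis). Bars with error lines are counted shares with Wilson 95% intervals, and bars without them are weighted averages: the pairs stand highest for each measure, at 94.3%, 60.0% and 59.8%.

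The windows of pairs are wider than those of single promoters, so single promoters were also scored in windows widened upstream by the distances found in the pairs. In windows of the same widths CHD8 occupied 50.1% of single promoters, which is 44.2 percentage points below the pairs (difference 42.4 to 45.7), and TRRAP 30.9%, which is 29.1 points below (25.9 to 32.2). Pairs were also richer in CpG, with a median CpG ratio (observed over expected CpG in about 1 kb) of 0.791 against 0.712 at single promoters. Weighting single promoters to the pairs' deciles of CpG ratio raised their shares to 70.6% for CHD8 and 44.4% for TRRAP. The differences were then 23.7 points (21.9 to 25.2) and 15.6 points (12.3 to 18.7).

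The gap in CHD8 between pairs and single promoters was wider where CpG was sparse, while the gap in TRRAP was not when deciles 4 to 10 were taken singly. In CpG deciles 1 to 5, CHD8 was present at 226 of 261 pairs (86.6%, 81.9 to 90.2) and at 24.8% of 8654 single promoters. TRRAP was present at 39.8% of these pairs (34.1 to 45.9) and at 11.0% of the single promoters. These deciles are not filled alike: most of the 261 pairs lie in deciles 4 and 5 (82 and 155 pairs), with 3, 8 and 13 pairs in deciles 1, 2 and 3. In decile 4 alone, CHD8 was present at 73 of 82 pairs (89.0%, 80.4 to 94.1) and at 46.4% of single promoters. TRRAP was present at 31.7% of pairs and 18.8% of single promoters in decile 4, at 47.1% and 32.6% in decile 5, and at 59.9% and 39.9% in decile 6. In deciles 6 to 10 the shares were 97.1% and 76.5% for CHD8, and 67.2% and 51.1% for TRRAP.

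**Figure D2:**
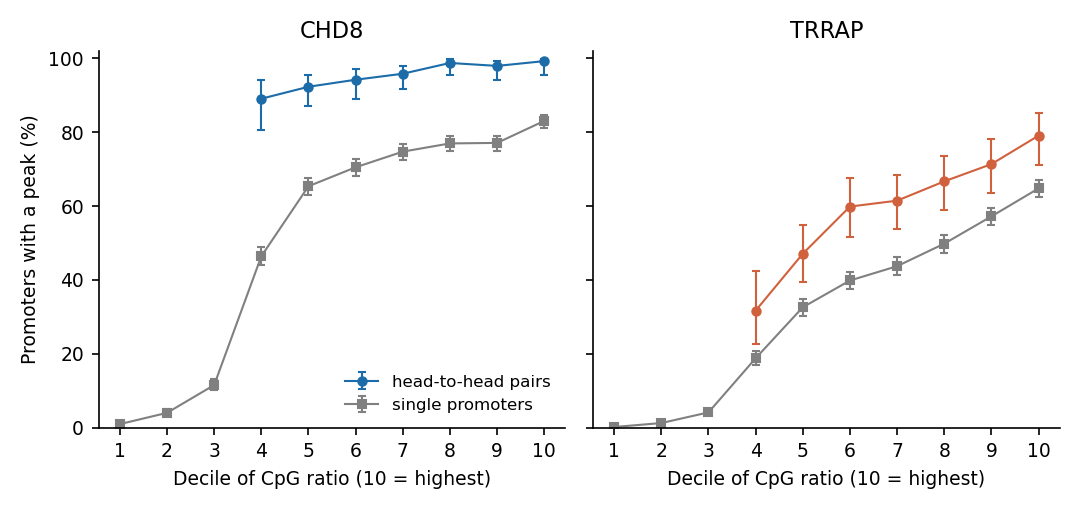
Percent of promoters with a peak (y axis) by decile of CpG ratio over all single promoters and pairs (x axis), for CHD8 (left) and TRRAP (right), with Wilson 95% intervals. Pairs are drawn from decile 4, since deciles 1 to 3 hold 24 pairs in all; CHD8 at pairs runs from 89.0% to 99.2% and TRRAP from 31.7% to 79.0%, each above single promoters in every decile drawn.

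Single coding promoters with a long noncoding RNA (lncRNA) start head to head within 1000 bp share the outward layout with 1 coding gene only, and they were closer to the pairs. Among 1758 such promoters, scored in windows of the same widths, CHD8 occupied 80.2% and TRRAP 55.5%. The pairs exceeded them by 14.1 points for CHD8 (11.7 to 16.5) and by 4.44 points for TRRAP (0.575 to 8.25). With CpG deciles weighted as well, the differences were 12.9 points (10.4 to 15.1) and 5.14 points (1.25 to 8.98).

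Once a promoter had CHD8, TRRAP was little more frequent at pairs than elsewhere. It was present at 588 of 928 CHD8-occupied pairs (63.4%, 60.2 to 66.4) and at 59.6% of CHD8-occupied single promoters in windows of the same widths, a difference of 3.78 points (0.468 to 7.0). With CpG weighting the difference was 2.42 points, with an interval that includes 0 (−0.897 to 5.64). CHD8 peaks were stronger at pairs, and TRRAP was more frequent where CHD8 was strong. From the strongest to the weakest quintile of CHD8 rank, TRRAP was present at 75.1%, 67.6%, 59.6%, 44.3% and 31.8% of pairs and at 75.1%, 71.2%, 62.8%, 54.0% and 35.9% of single promoters. For these quintiles single promoters were scored within 500 bp of the start, without widened windows. Weighted to the pairs' CHD8 quintiles, single promoters had TRRAP in 66.4% of cases, and the difference turned to −3.03 points (−6.36 to 0.207). Weighted to quintiles of CHD8 peak width it was −4.51 points (−7.81 to −1.30). Against CHD8-occupied promoters with a head-to-head lncRNA start the difference was −4.65 points (−8.60 to −0.731), and with CpG weighting −2.80 points (−6.83 to 1.21). The sign of the TRRAP difference given CHD8 therefore depends on the reference.

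The 2 proteins differed in how strong their peaks were at pairs. The strongest CHD8 peak at a pair had a median fold of 15.1 (25th to 75th percentile 11.5 to 19.9) and a median width of 794 bp, against 11.5 (8.87 to 15.5) and 605 bp at single promoters. For these levels single promoters were scored within 500 bp of the start, so their windows were narrower than those of pairs. Within CpG deciles 6 to 10 the medians were 15.1 against 12, and 820.0 against 643 bp. At 32.3% of CHD8-occupied pairs the strongest CHD8 peak ranked in the top 10% of the list. This share was 17.0% at CHD8-occupied single promoters and 21.2% at those with a head-to-head lncRNA start. Pairs held 4.45% of all CHD8 peaks and 11.8% of its top 10%. TRRAP showed no such shift: the median fold was 8.65 at pairs and 8.65 at single promoters, and the median width 285.5 and 271 bp. The strongest TRRAP peak was in the top 10% of its list at 9.66% of TRRAP-occupied pairs, against 11.3% of TRRAP-occupied single promoters. Pairs held 4.66% of all TRRAP peaks and 3.80% of the top 10% of that list. At pairs with both proteins the CHD8 fold was a median of 15.9, and at pairs with CHD8 alone 12.8.

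The strongest CHD8 peaks at pairs were the following. SNX5/MGME1 (chromosome 20, starts at 17968794 and 17969018), a sorting nexin beside a mitochondrial exonuclease, had the highest CHD8 fold, 87.1, at rank 17 of the whole list, and 12.9 for TRRAP. HCFC1/TMEM187 (chromosome X, 153971818 and 153972754), where HCFC1 is a transcriptional coregulator that assembles chromatin-modifying complexes, had a CHD8 peak of 2649 bp with a fold of 64.1, beside 19.6 for TRRAP. FIZ1/ZNF524 (chromosome 19, 55599517 and 55600288), a pair of zinc finger genes, had folds of 53.5 and 14.4. RSRC2/KNTC1 (chromosome 12, 122526936 and 122527249), where KNTC1 is a kinetochore protein, had folds of 52.6 and 15.3. WDR77/ATP5PB (chromosome 1, 111449256 and 111449464), a methylosome subunit beside a subunit of the mitochondrial ATP synthase, had a CHD8 fold of 50.9 beside a weak TRRAP peak (fold 5.78, rank 14290). All of these pairs carried both proteins, but none was among the 5 strongest for TRRAP.

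The strongest TRRAP peaks at pairs sat, in 4 of 5 cases, beside a CHD8 peak below the pairs' median fold of 15.1. DCUN1D2/TMCO3 (chromosome 13, 113490711 and 113491021), where DCUN1D2 belongs to the cullin neddylation machinery, had a TRRAP fold of 81.7 (rank 15), while its CHD8 fold was 13.7 (rank 4763). SLC25A40/DBF4 (chromosome 7, 87876360 and 87876493), a mitochondrial carrier beside the regulatory subunit of the CDC7 replication kinase, reached 51.2 for TRRAP and 12 for CHD8. FAM227B/DTWD1 (chromosome 15, 49620818 and 49621048) had 38.3 and 29.2. IFT25/LRRC42 (chromosome 1, 53945699 and 53946350), where IFT25 is a subunit of the intraflagellar transport machinery, had 36.8 and 10.2. WASF1/CDC40 (chromosome 6, 110179670 and 110180427), an actin regulator beside a splicing factor, had 34.0 and 10.6, with a TRRAP peak of 1560 bp.

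CHD8 without TRRAP was not limited to weak peaks. AKT1S1/TBC1D17 (chromosome 19, 49877355 and 49877702), where AKT1S1 is an inhibitor of mTORC1, had a CHD8 peak of 2167 bp with a fold of 44.7 and no TRRAP peak. UFD1/CDC45 (chromosome 22, 19479193 and 19479920), a cofactor in the extraction of ubiquitylated proteins beside a subunit of the replicative helicase, had a fold of 42.0. ADAT2/PEX3 (chromosome 6, 143450695 and 143450805), a tRNA deaminase subunit beside a peroxisome biogenesis factor, had 41.6, and its printed interval holds none of the words searched. SUPT7L/SLC4A1AP (chromosome 2, 27663614 and 27663889) had 38.9 and ARHGAP1/ZNF408 (chromosome 11, 46700619 and 46701031) 37.6. SUPT7L is itself a subunit of SAGA, an acetyltransferase complex that contains TRRAP. A missing TRRAP peak means that none passed the authors' threshold in 1 library.

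Distance between the starts had little bearing on CHD8 and a mixed one on TRRAP. CHD8 was present at 90.0%, 90.5%, 93.1%, 97.5%, 95.7% and 94.8% of pairs in successive bins of distance that end at 50, 100, 200, 300, 500 and 1000 bp. TRRAP was present at 75%, 56.1%, 54.3%, 58.3%, 64.5% and 64.4% in the same order. The closest bin holds 40 pairs, of which 30 had TRRAP (59.8 to 85.8%), among them FOXM1/RHNO1 (49 bp), where FOXM1 is a transcription factor of the cell cycle, and PARP9/DTX3L (38 bp), partners in ADP-ribosylation; some of these pairs share a gene. Outside the limit, 115 pairs with starts over 1000 and up to 2000 bp apart had CHD8 in 88.7% and TRRAP in 52.2% of cases, and 59 pairs whose transcripts overlap at their starts by up to 1000 bp had 79.7% and 62.7%. At the limit itself, HNRNPA2B1/CBX3 (999 bp apart, the classical promoter of a splicing factor and a heterochromatin protein) had folds of 21.2 for CHD8 and 20.6 for TRRAP. Its CHD8 summit lay −1179.5 bp from the midpoint (negative: toward HNRNPA2B1), outside the scored window. The pair just inside the distance limit, ATP6V1G2/NFKBIL1 (1000 bp), had a CHD8 fold of 15.5 and no TRRAP peak. Just outside the limit, ABHD14B/ABHD14A-ACY1 (1011 bp) had folds of 9.31 and 10.1 and HNRNPUL2/TTC9C (1029 bp) had 19.0 and 10.1.

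**Figure D3:**
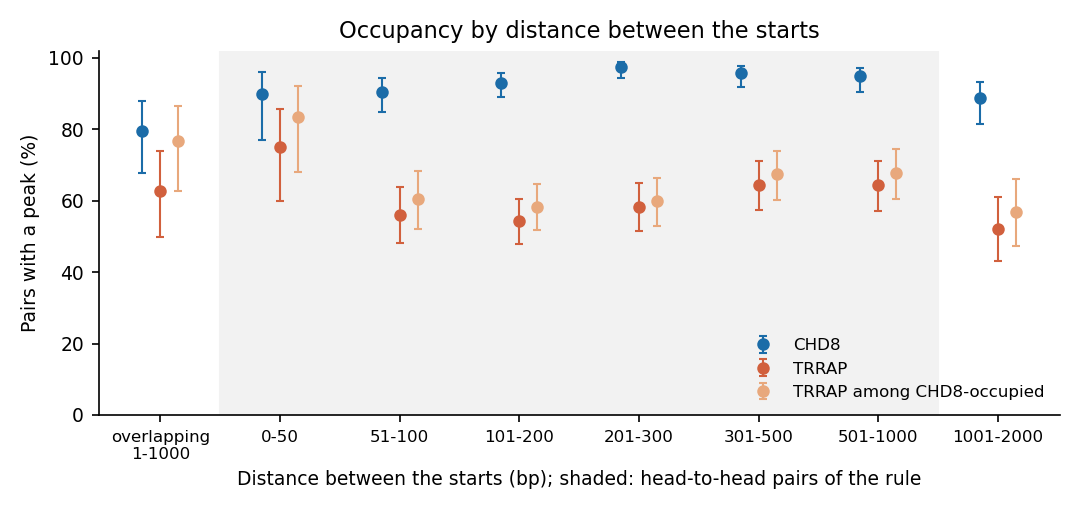
Percent of pairs with a peak (y axis) by distance between the starts (x axis) for CHD8, for TRRAP and for TRRAP among CHD8-occupied pairs, with Wilson 95% intervals. Within the shaded bins that meet the rule CHD8 stays between 90.0% and 97.5%, and TRRAP is highest in the bin of 0 to 50 bp (30 of 40 pairs).

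A single CHD8 peak usually spanned the whole shared promoter. The strongest CHD8 peak covered both starts at 742 of 928 pairs (80.0%, 77.3 to 82.4), from 100.0% of pairs at most 50 bp apart down to 55.8% of those more than 500 bp apart. The strongest TRRAP peak is narrower and covered both starts at 186 of 590 pairs (31.5%, 27.9 to 35.4), from 73.3% down to 6.25%. It covered only the minus-strand start at 24.2% of pairs, only the plus-strand start at 23.9% and no start at 20.3%. At least 2 separate CHD8 peaks were found at 2.78% of the occupied pairs at most 50 bp apart and at 30.3% of those over 500 bp apart, and at least 2 TRRAP peaks at 6.67% and 42.9%. The window searched lengthens with the distance. Only 1 CHD8 peak was found at 80.5% of occupied pairs and at 85.1% of occupied single promoters. For TRRAP these shares were 76.1% and 81.9%.

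The summits lay close to one of the starts, and in widely spaced pairs few lay midway. The strongest CHD8 summit was a median of 62 bp from the nearest start (25th to 75th percentile 28 to 126 bp) and the strongest TRRAP summit 59 bp (30 to 126.75 bp). CHD8 summits lay between the starts at 49.2% of pairs (46.0 to 52.5), beyond the minus-strand start at 26.8% and beyond the plus-strand start at 23.9%. At single promoters 40.1% of CHD8 summits lay within the same distances upstream of the start. For TRRAP the shares were 46.9% (277 of 590), 27.5% and 25.6%, and 44.2% at single promoters. In pairs more than 500 bp apart, 19 of 117 CHD8 summits between the starts lay in the third of the interval around its midpoint (16.2%, 10.6 to 24.0), and of 70 TRRAP summits 5 did (7.14%, 3.09 to 15.7). In pairs with starts over 200 and up to 300 bp apart the shares were 27.3% (19.1 to 37.4) and 28.8% (18.8 to 41.4), and in those over 300 and up to 500 bp apart 22.4% and 19.4%. Where both proteins were present, their strongest peaks overlapped at 95.4% of pairs (single promoters 94.6%), the median distance between their summits was 108 bp (single promoters 99 bp), and they lay on the same side of the midpoint at 367 of 588 pairs (62.4%, 58.4 to 66.2).

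**Figure D4:**
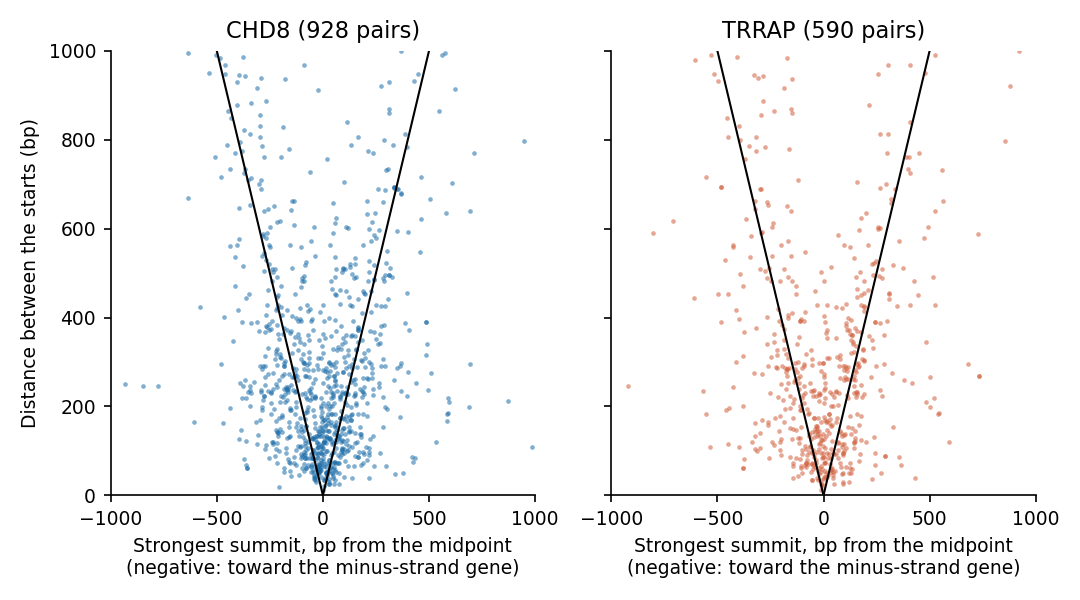
Position of the strongest summit at each occupied pair, in bp from the midpoint between the starts (x axis), against the distance between the starts in bp (y axis), for CHD8 (left) and TRRAP (right). The black lines mark the minus-strand start (left line) and the plus-strand start (right line). The median distance to the nearest start was 62 bp (CHD8) and 59 bp (TRRAP) over all pairs, and it was larger where the starts were far apart. Outside the frame fall 3 CHD8 and 2 TRRAP summits more than 1000 bp from the midpoint.

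Several consensus words differed in frequency between pairs and single promoters, the ETS word most in percentage points. Exact copies on either strand were looked for in 300 bp centred on the midpoint of each pair, and from 250 bp before to 50 bp after the start of each single promoter. The SP word can overlap a neighbouring copy of itself, and the words of different factors can overlap each other. The ETS word was present at 304 of 984 pairs (30.9%, 28.1 to 33.9), at 11.8% of single promoters and at 16.1% of single promoters weighted to the pairs' CpG deciles. The E2F words were present at 38 pairs (3.86%, 2.83 to 5.26), against 1.22% and 1.63%. The YY1 word was present at 2.64% of pairs, against 1.23% and 1.73%, and the NRF1 word at 2.95%, against 1.52% and 2.23%. The NFY word was found at 41.6% of pairs, against 35.4% and 34.3%, and the CRE word at 4.37%, against 2.48% and 3.28%. CHD8 was present at all 29 pairs with the NRF1 word, all 26 with the YY1 word and 105 of 106 with the E-box, against 94.1%, 94.2% and 93.7% of the pairs without each word. The lower limits for the NRF1 and YY1 words, 88.3% and 87.1%, lie below the 94.3% of all pairs. The E-box differed little once CpG was weighted (10.8%, against 8.46% and 10.0%). For the NRF1, CRE and TATA words the intervals at pairs (2.06 to 4.20, 3.26 to 5.83 and 3.35 to 5.95%) include the CpG-weighted value. Words below the single promoters were the TATA word (4.47%, against 10.5% and 5.45%) and, with CpG weighted, the SP word (22.1%, against 24.6% and 33.8%). COX15/CUTC is an example with the ETS word, which begins at the second base of the printed interval. Its folds were 16.8 for CHD8 and 11.0 for TRRAP, with summits 35 and 88 bp beyond the start of CUTC and so outside that interval.

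The NFY word was more frequent at pairs that had CHD8 without TRRAP. It was present at 182 of 340 pairs with CHD8 alone (53.5%, 48.2 to 58.8), at 209 of 588 pairs with both proteins (35.5%, 31.8 to 39.5) and at 17 of 54 pairs with neither (31.5%). Seen from the word, TRRAP was present at 209 of 391 CHD8-occupied pairs with it (53.5%, 48.5 to 58.3) and at 379 of 537 without it (70.6%, 66.6 to 74.3), a difference of −17.1 points (−23.3 to −10.8). The difference was −20.5 points (−32.5 to −7.39) in CpG deciles 1 to 5 and −16.1 points (−23.0 to −9.08) in deciles 6 to 10, and with 1 pair per locus it was −16.1 points (−22.5 to −9.58). CHD8 peaks were somewhat weaker where the word was present (median fold 13.7 against 15.9, width 786 against 803 bp); the part of CHD8 strength in this difference was not tested. At single promoters the same difference was −6.26 points (−8.44 to −4.07), and the gap between pairs and single promoters was −10.9 points (−17.4 to −4.19). SARS2/MRPS12, the pair of the mitochondrial seryl-tRNA synthetase and a mitochondrial ribosomal protein, is an example. Its printed interval holds 4 CCAAT words, its CHD8 fold was 28.3 and it had no TRRAP peak. Its CHD8 summit lay −102 bp from the start of SARS2 (negative: away from MRPS12), outside that interval.

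The ETS word went the same way, and the CRE word the other way. Among CHD8-occupied pairs, TRRAP was present at 56.4% of 296 pairs with the ETS word and at 66.6% of 632 without it, a difference of −10.2 points (−16.9 to −3.50), beside −9.35 points at single promoters. In CpG deciles 1 to 5 the ETS difference at pairs was −3.03 points, with an interval that includes 0 (−16.2 to 10.5). In deciles 6 to 10 it was −11.7 points (−19.3 to −4.24). METTL6/EAF1, with 2 ETS words in a printed interval of 53 bp, had a CHD8 fold of 23.5 and no TRRAP peak. Its CHD8 summit lay −61 bp from the start of METTL6 (negative: away from EAF1), outside that interval. CHD8 itself was present at 296 of 304 pairs with the ETS word (97.4%) and at 92.9% of the others. The CRE word was present at 43 pairs, all of them with CHD8 (lower limit 91.8%), against 94.0% of the pairs without it. Of these 43 pairs 36 had TRRAP (83.7%, 70.0 to 91.9), against 62.4% of the CHD8-occupied pairs without the word. That difference was 21.3 points (7.30 to 30.1), 19.1 points (3.75 to 28.9) with 1 pair per locus, and 5.85 points (0.364 to 11.0) at single promoters. In CpG deciles 1 to 5, which hold 9 pairs with the CRE word, it was 10.4 points (−19.3 to 36.8). In deciles 6 to 10 it was 23.2 points (8.67 to 30.0). DDX51/NOC4L, where NOC4L acts in ribosome assembly, holds 1 CRE word in its printed interval and had folds of 20.8 for CHD8 and 6.73 for TRRAP; AURKA/CSTF1, which holds the mitotic kinase Aurora A, had 19.0 and 6.73. The E-box and SP differences among CHD8-occupied pairs, 6.95 points (−2.96 to 15.6) and 5.91 points (−1.63 to 12.9), had intervals that include 0. The E2F words were present at 38 pairs, all with CHD8 (lower limit 90.8%), against 94.1% of the pairs without them. The lower limits for CHD8 with the CRE and E2F words lie below the 94.3% of all pairs. Of the 38 pairs with E2F words 26 had TRRAP (68.4%, 52.5 to 80.9), against 63.1% of CHD8-occupied pairs without them. These word comparisons were picked out of the words searched after the values were seen.

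**Figure D5:**
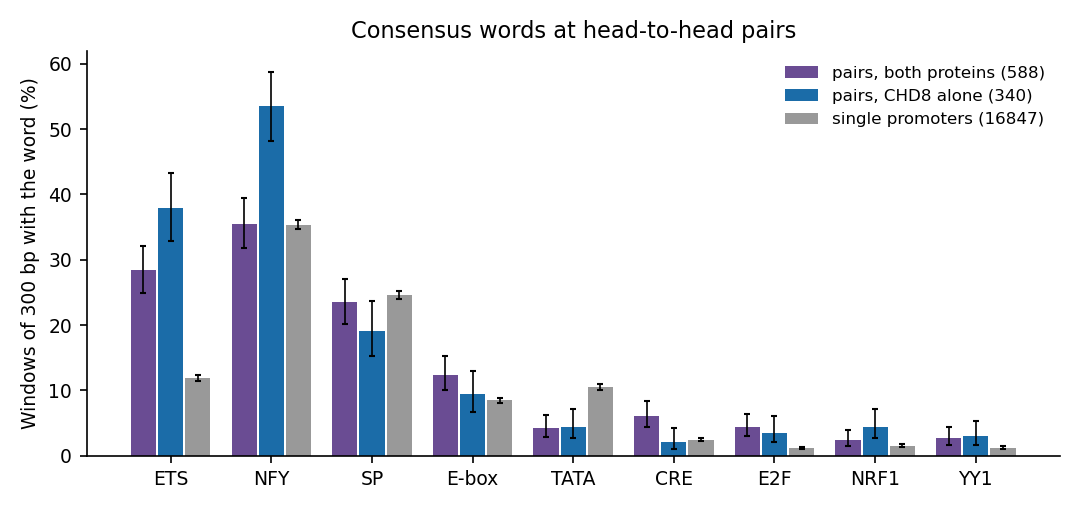
Percent of 300-bp windows that hold each consensus word (y axis) by word (x axis), at pairs with both proteins, at pairs with CHD8 alone and at single promoters, with Wilson 95% intervals. The NFY word stands at 53.5% in pairs with CHD8 alone and at 35.5% in pairs with both, and the ETS word is more frequent in both classes of pairs (37.9% and 28.4%) than at single promoters (11.8%).

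Pairs held a larger share of most lists of general cell functions than the 9.49% of all coding genes. Pairs held 26 of 78 mitochondrial ribosomal protein genes (33.3%, 23.9 to 44.4), 29 of 96 genes of oxidative phosphorylation (30.2%), 41 of 136 genes of DNA replication and repair (30.1%) and 11 of 33 RNA polymerase subunit genes (33.3%). They held 13 of 77 cytosolic ribosomal protein genes (16.9%), 8 of 48 proteasome genes (16.7%), 13 of 69 chaperone genes (18.8%) and 38 of 509 ZNF zinc finger genes (7.47%). Where 94.3% of all pairs had CHD8, it was present at all 27 pairs with a mitochondrial ribosomal protein gene, all 29 of oxidative phosphorylation, all 14 of the cytosolic ribosome, all 9 of the proteasome and all 11 of RNA polymerase. The lower limits, 87.5%, 88.3%, 78.5%, 70.1% and 74.1% in the same order, lie below the 94.3% of all pairs. Some of these pairs share a gene. The single promoters of these lists were often as full, with CHD8 at 46 of 47 for the mitochondrial ribosome, 57 of 57 for the cytosolic ribosome and 17 of 17 for RNA polymerase. For oxidative phosphorylation it was present at 49 of 58 single promoters (84.5%), and for the proteasome at 31 of 35 (88.6%).

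The TRRAP shares of these lists rest on few pairs each. At the single promoters of the cytosolic and mitochondrial ribosome lists TRRAP was present in 68.4% and 53.2% of cases. For RNA polymerase and oxidative phosphorylation these shares were 41.2% and 37.9%. Of the 14 pairs with a cytosolic ribosomal protein gene 12 had TRRAP (85.7%, 60.1 to 96.0), and the exceptions were TRIM66/RPL27A and VPS52/RPS18. Their folds were low, as at NDUFA7/RPS28 (7.69) and RPL18/SPHK2 (6.73). Of the 27 pairs with a mitochondrial ribosomal protein gene 13 had TRRAP (48.1%, 30.7 to 66.0), against 60.0% of all pairs. They included HIRA/MRPL40 (21.1; HIRA is a histone chaperone) and PIERCE1/MRPS2 (21.1), while MRPL46/MRPS11, which joins 2 mitochondrial ribosomal protein genes, had a CHD8 fold of 29.2 and no TRRAP peak. Of the RNA polymerase pairs 8 of 11 had TRRAP (72.7%, 43.4 to 90.3), and of those of oxidative phosphorylation 15 of 29 (51.7%, 34.4 to 68.6). All of these intervals include the 60.0% of all pairs except that of the cytosolic ribosome, whose lower limit is 60.1%. Its 14 pairs hold only 13 genes of the list. RPS28 counts with NDUFA7 and again with an unnamed coding gene, each time with TRRAP, so this exception is not read as a difference. MRPL47 and MRPL32 are likewise counted more than once, each time with CHD8 alone.

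DNA replication and repair genes stood in 41 pairs, of which 39 had CHD8 (95.1%) and 27 had TRRAP (65.9%, 50.5 to 78.4), near the 94.3% and 60.0% of all pairs. Single promoters of this list had CHD8 in 96.6% and TRRAP in 61.8% of cases. MCM7/AP4M1, with a subunit of the replicative helicase, had folds of 26.1 for CHD8 and 20.1 for TRRAP. The CHD8 and TRRAP summits of MCM7/AP4M1 lay −850 and −921 bp from the midpoint (negative: toward MCM7), outside the scored window. POLE3/C9orf43, with an accessory subunit of DNA polymerase epsilon, had folds of 27.9 and 11.5, and OSGEP/APEX1, with the main abasic site endonuclease, 16.4 and 12.9. CHD8 without TRRAP was found at PALB2/DCTN5 (16.8), where PALB2 links BRCA1 to BRCA2, at ORC4/MBD5 (17.3) and RARS2/ORC3 (10.6), which hold subunits of the origin recognition complex, and at the pairs of XRCC1, XRCC3 and XRCC4 (7.98, 12 and 10.2). The pairs without CHD8 were IGBP1C/RAD51C and TEX14/RAD51C, which share RAD51C and had neither protein. Members of 1 pathway thus fell into all of these classes.

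The proteasome, chaperone and ZNF lists also held pairs with and without TRRAP. Of the 9 proteasome pairs 6 had TRRAP (66.7%, 35.4 to 87.9), among them PSMA7/SS18L1 (CHD8 11.1, TRRAP 19.2) but not PSMA2/MRPL32 (CHD8 14.2). Of the 12 chaperone pairs 11 had CHD8 and 6 had TRRAP, and HSPA1L/HSPA1A, the heat-inducible HSP70 locus, had neither. Of the 32 pairs with a ZNF gene 31 had CHD8 and 18 had TRRAP (56.3%, 39.3 to 71.8), with the highest TRRAP fold at ZNF565/ZNF146 (26.3, CHD8 26.1). These intervals, too, include the share of all pairs. These examples were chosen after their values were seen.

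Replication-dependent histone genes, which are expressed in S phase, are the classical case of the layout: 26 of 69 lay in pairs (37.7%, 27.2 to 49.5), mostly an H2A gene facing an H2B gene. They form 14 pairs, 12 of them on chromosome 6. CHD8 was present at 13 pairs and TRRAP at 5 (35.7%, 16.3 to 61.2), an interval that includes the 60.0% of all pairs. At single histone promoters TRRAP was present in 43.5% of cases. The folds of H2AC25/H2BC26 were 15.1 for CHD8 and 20.6 for TRRAP, and those of H3C7/H2BC9 17.3 and 12. CHD8 alone was found at 8 pairs, such as H2BC4/H2AC6 (18.6) and H2BC12/H2AC12 (12.4). The NFY word was present in all 14 windows and the TATA word in 10. The printed interval of H2BC12/H2AC12 holds several CCAAT words, an E2F word, a CRE word and TATA words at both ends; the summit of its CHD8 peak lay 809 bp from the start of H2BC12, outside that interval. The CHD8 summits of H2BC4/H2AC6 and H3C7/H2BC9 also lay beyond the 500 bp extension, 654 and 603 bp outside the minus-strand start. H2AC1/H2BC1, genes known for expression in testis, hold NFY and TATA words in the printed interval and had neither protein. Without the histone pairs the NFY difference in TRRAP was −16.6 points (−22.9 to −10.2). Reads from near-identical histone genes may be placed at the wrong copy, and this was not tested.

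A panel of 23 genes that are textbook members of shared promoters was chosen with earlier results of these data known, so it is not an independent sample. Of these, 20 lay in 21 pairs, and MSH3, RANBP1 and COL4A5 did not meet the rule with canonical starts. Both proteins were present at 16 panel pairs, CHD8 alone at 4 and neither at 1, where 59.8% of all pairs had both. NPAT/ATM (chromosome 11, starts at 108222638 and 108223067) joins a coactivator of histone transcription to the DNA damage kinase ATM, and had folds of 11.1 for CHD8 and 15.8 for TRRAP. ZAR1L/BRCA2 (chromosome 13, 32315363 and 32315508), where BRCA2 acts in homologous recombination, had 11.1 and 14.4, with both summits between the starts. MRE11/ANKRD49 had 11.1 and 9.12, MUTYH/TOE1 17.3 and 15.3, and NTHL1/TSC2 14.2 and 7.21.

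Other panel pairs with both proteins covered metabolism, protein folding and the cell cycle. PRKDC/MCM4, which joins a DNA repair kinase to a subunit of the replicative helicase, had folds of 18.6 for CHD8 and 10.1 for TRRAP. PPAT/PAICS, enzymes of purine synthesis, had 12.8 and 10.6, with the TRRAP summit at the start of PPAT. HSPD1/HSPE1, the mitochondrial chaperonin and its cochaperonin, had 15.9 and 14.4, and a readthrough gene gives the same peaks a second pair. TK1/AFMID, with the thymidine kinase of S phase, had 15.5 and 7.21. SIRT3/PSMD13 had 15.5 and 5.30, SGCE/PEG10, an imprinted pair, 10.6 and 5.30, and COL4A1/COL4A2, collagen chains of basement membranes, 7.10 and 6.73.

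The panel pairs with CHD8 alone included SARS2/MRPS12 (fold 28.3), SURF1/SURF2 (9.75) and TAP1/PSMB9 (7.54). SURF1 is an assembly factor of cytochrome c oxidase, and TAP1/PSMB9 encode a peptide transporter subunit and an immunoproteasome subunit. The CHD8 peaks of SURF1/SURF2 and TAP1/PSMB9 ranked 10644 and 17085 in the list. COL4A4/COL4A3 (chromosome 2, 227164205 and 227164624), the collagen chains of the kidney glomerulus and other specialised basement membranes, had neither protein.

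The 54 pairs with neither protein were lower in CpG than the others. Of them 34 lay in CpG deciles 1 to 5 and 20 in deciles 6 to 10, their median CpG ratio was 0.673 against 0.817 at pairs with both, and 2 had a window of repeated sequence. Examples, chosen after the values were seen, are DUOX2/DUOXA2 and DUOXA1/DUOX1 (dual oxidases of the thyroid and airway and their maturation factors), ABCG5/ABCG8 (sterol exporters of liver and gut), OR11A1/OR2H1 (olfactory receptors), TRPM5/KCNQ1 (ion channels), NLRP7/NLRP2, CSAG1/MAGEA12 (cancer-testis antigens), CRYAB/HSPB2 (small heat shock proteins of lens and muscle) and FOXA1/TTC6 (FOXA1 is a pioneer factor of endoderm). Genes of broad use were also in this class, such as MAN2B1/WDR83, with a lysosomal mannosidase, and TRADD/FBXL8, with an adaptor of TNF signalling. The printed interval of DUOX2/DUOXA2 holds a TATA word. Gene expression was not measured here, so occupancy cannot be set against transcription of these genes. The ETS word was present at 7 of the 54 (13.0%, 6.42 to 24.4), below the 30.9% of all pairs.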

How the data were processed

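Peak lists of 1 CHD8 and 1 TRRAP ChIP-seq library were used. Per the submitters' processing notes, GRCh38, HISAT2 and MACS2 2.1.1.20160309 were named; settings, control and read totals are not given in the sources used here, and precision is limited accordingly. The lists are labelled with false discovery rates of 0.0001 (CHD8) and 0.001 (TRRAP). For each peak the authors deposited a fold (a ratio of signal to background), −log10 p and −log10 q values, a summit offset, and a score that equals 10 times −log10 q, rounded down. Ranks use −log10 q, then fold, width and position.

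Coding starts, lncRNA starts and exons came from GENCODE release 44, and coordinates count from 1. Single promoters have no other coding start within 2000 bp, and 1228 coding genes were in neither group. Weighted shares of single promoters average over the pairs' distances or CpG deciles. Repeated windows have a median copy number above 1 for 32-base words taken every 25 bp. Pair finding, scoring and intervals were tested on simulated data.

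The named pairs were those of the panel, the 5 strongest of CHD8, of TRRAP and of CHD8 without TRRAP, those of TRRAP without CHD8, and those nearest the distance limit. Others were chosen after their values were seen. Some pairs that meet these rules are not reported here by name, but they are in the counts. The members and lists were chosen with earlier results of these data known. The lists are written from general knowledge. Alternatives covered the window, thresholds, starts, reference promoters and repeats. The tools were samtools 1.23.1, matplotlib 3.10.9, pandas 2.3.3, Python 3.11.15 with numba 0.67.0, numpy 2.4.6, and pysam 0.24.0.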

Additional observations from a re-analysis of the deposited data

How the results depend on the processing

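No paired analysis was possible because each antibody had 1 library. The shares of pairs with CHD8, TRRAP and both moved most with peaks above the median rank of their list, to 85.0%, 33.3% and 31.9%, and TRRAP among CHD8-occupied pairs to 37.6%. The differences from single promoters were then 48.6, 16.0 and 17.5 points, and the difference in TRRAP among CHD8-occupied promoters turned to −2.06 points. With the outermost start of each gene the shares were 91.2%, 56.2% and 55.7%, and the CHD8 difference was 45.7 points. Matching on CpG deciles gave differences of 23.7, 15.6 and 16.7 points with the ratio over about 1 kb, and 27.1, 17.8 and 18.9 points over about 300 bp. Against single promoters without an lncRNA start within 2000 bp they were 49.4, 33.2 and 34.0 points. Matching on quintiles of CHD8 rank or width, chosen after seeing the data, turned the difference in TRRAP among CHD8-occupied promoters to −3.03 and −4.51 points. CHD8 summits lay between the starts in 43.7% of cases with all peaks of a window counted, and in 52.9% at pairs 100 to 1000 bp apart, where TRRAP gave 51.4%. Counting 1 pair per locus, or only windows of single-copy sequence, also chosen after seeing the data, moved no share or difference beyond its counting interval. The differences for CHD8, TRRAP and both kept their direction under every alternative run. The cause of these changes was not tested, apart from the smaller number of peaks above the median rank. With 1 library per antibody, depth and antibody efficiency cannot be told apart from occupancy.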
